A study of Homo sapiens with 4 samples.

Results

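Smad2 and Smad3 binding was examined at 10 genes that make, store and sense TGFβ: the ligands TGFB1, TGFB2 and TGFB3, the receptors TGFBR1 and TGFBR2, the co-receptors TGFBR3 and ENG, and the latent binding proteins LTBP1, LTBP2 and LTBP3. A peak was assigned to a gene when it overlapped the GENCODE v44 gene span widened by 10 kb on each side. By this rule 58 of the 104156 peaks in 4 lists lay at the 10 genes, which are 10 of 20033 protein-coding genes. The lists came from anti-GFP ChIP-seq, in which chromatin bound by a GFP-tagged protein is pulled down and sequenced, in MDA-MB-231, a human triple-negative breast cancer cell line. The cells carried Smad2 or Smad3 fused to a localization and affinity purification (LAP) tag on a bacterial artificial chromosome, which keeps the gene's own control elements near it, and they still had their untagged Smads. Each line was 1 population selected with Geneticin and sorted for GFP, and each was profiled without ligand and with 10 ng/mL of TGFβ-1 for 2 h. The conditions were LAP-Smad2 untreated, LAP-Smad2 treated, LAP-Smad3 untreated and LAP-Smad3 treated, with 1 library each.

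TGFβ is secreted bound to its own propeptide, and latent binding proteins tether that latent complex to the extracellular matrix until it is released. The free ligand brings together TGFBR2 and TGFBR1. TGFBR1 then phosphorylates Smad2 and Smad3, which enter the nucleus with Smad4 and regulate target genes. Several genes of the pathway are themselves known targets of TGFβ, so binding at ligand, receptor and storage genes bears on feedback.

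With 1 library per condition there is no replicate check, and no test of a difference between conditions was made. Intervals on shares are 95% Wilson intervals and cover counting error only. They treat peaks as independent, though several can lie at the same gene. The treated lists held 26828 peaks for LAP-Smad2 and 62551 for LAP-Smad3. The untreated lists held 11266 peaks in the library labelled LAP-Smad2 and 3511 in the library labelled LAP-Smad3. For this untreated pair the deposited names give the Smads the other way round from the labels, so no direction between Smads or with treatment was drawn from it. The study's methods state a minimum number of reads, but a peak list holds no read totals, so the read depth of each library is unknown. A longer list tends to give a gene more peaks. Fold enrichment, the ratio of reads at a peak to the background the peak caller estimated there, was therefore ranked only within its own list.

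**Figure D1:**
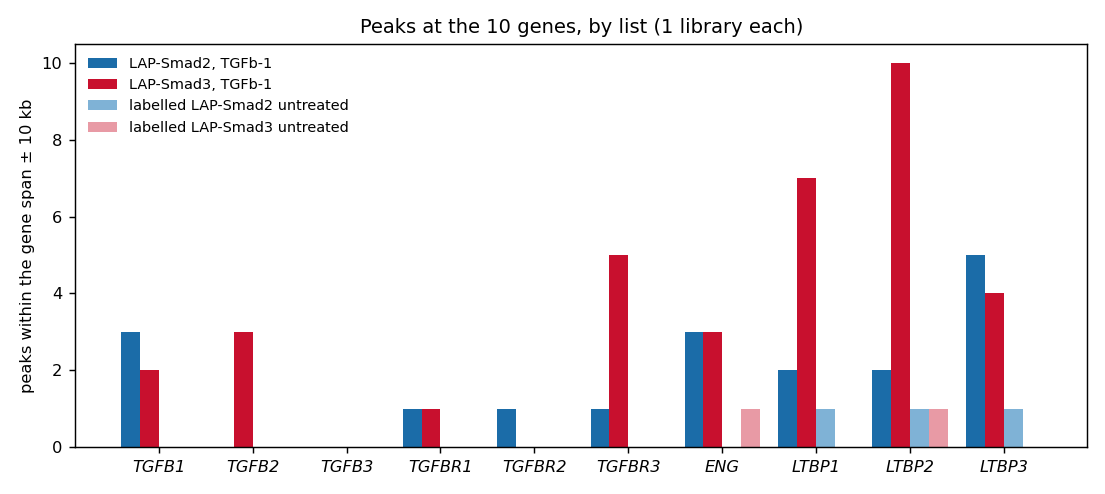
Number of peaks (vertical axis) within the span of each gene widened by 10 kb, with 1 bar for each list and 1 library behind each bar. LTBP2 had the most LAP-Smad3 peaks with 10, LTBP3 the most LAP-Smad2 peaks with 5, and TGFB3 had none in any list.

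After TGFβ-1, LAP-Smad2 and LAP-Smad3 each had peaks at 8 of the 10 genes, close to what genes of this length had in general. LAP-Smad2 peaks lay within 1 kb of the main start of TGFB1, TGFBR1, TGFBR2, TGFBR3, LTBP2 and LTBP3, 6 of 10 genes against 23.8% of all protein-coding genes. LAP-Smad3 peaks did so at 0 of 10, against 14.4%. Of the 35 LAP-Smad3 peaks 10 were at LTBP2, 7 at LTBP1 and 5 at TGFBR3. Whether either count is particular to these genes was not tested. The sequences under 6 of these peaks are printed here, each as the 200 bp around the summit in build hg38, read 5′ to 3′ along the gene's strand. Windows that overlap an untranslated region or lie in repeated sequence were not printed.

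The LAP-Smad2 peaks near a start are shown first because they lie at the main starts of the genes. Capitals mark GGCGC or GGCCG, the GC-rich Smad sites, on either strand, with overlapping matches merged.
TGFBR1, LAP-Smad2, chr9:99105745-99105944, plus strand: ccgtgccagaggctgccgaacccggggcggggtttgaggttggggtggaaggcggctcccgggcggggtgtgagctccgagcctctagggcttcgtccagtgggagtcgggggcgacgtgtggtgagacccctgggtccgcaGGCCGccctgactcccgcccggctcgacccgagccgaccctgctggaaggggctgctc
TGFBR3, LAP-Smad2, chr1:91885558-91885757, minus strand: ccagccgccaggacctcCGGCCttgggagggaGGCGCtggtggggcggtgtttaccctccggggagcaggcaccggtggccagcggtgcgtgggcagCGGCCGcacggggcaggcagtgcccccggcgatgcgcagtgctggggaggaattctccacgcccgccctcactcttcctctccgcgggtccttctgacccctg
LTBP2, LAP-Smad2, chr14:74611370-74611569, minus strand: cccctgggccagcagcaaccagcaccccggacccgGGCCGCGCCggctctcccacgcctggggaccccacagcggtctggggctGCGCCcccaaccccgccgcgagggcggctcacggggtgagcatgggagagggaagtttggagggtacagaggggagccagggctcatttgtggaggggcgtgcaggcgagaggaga
LTBP3, LAP-Smad2, chr11:65559015-65559214, minus strand: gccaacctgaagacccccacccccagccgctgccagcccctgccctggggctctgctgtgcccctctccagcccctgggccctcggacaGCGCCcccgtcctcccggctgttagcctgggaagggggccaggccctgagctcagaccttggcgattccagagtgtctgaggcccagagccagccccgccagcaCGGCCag

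The LAP-Smad3 peak of LTBP2 with the highest fold enrichment is shown with a weaker neighbour, because it was the strongest treated LAP-Smad3 peak at the 10 genes. Capitals mark CAGAC, the Smad binding element with its flank, or its reverse complement GTCTG, with adjacent matches running together.
LTBP2, LAP-Smad3, chr14:74509188-74509387, minus strand: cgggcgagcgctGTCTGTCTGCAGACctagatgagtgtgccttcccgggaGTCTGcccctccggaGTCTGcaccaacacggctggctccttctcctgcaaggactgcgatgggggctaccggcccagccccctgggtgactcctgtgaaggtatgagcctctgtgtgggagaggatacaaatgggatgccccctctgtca
LTBP2, LAP-Smad3, chr14:74510125-74510324, minus strand: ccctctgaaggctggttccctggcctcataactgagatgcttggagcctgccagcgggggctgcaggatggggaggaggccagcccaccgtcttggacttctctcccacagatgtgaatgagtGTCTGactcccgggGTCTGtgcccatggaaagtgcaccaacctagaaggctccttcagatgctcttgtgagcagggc

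In the LAP-Smad2 treated list 18 peaks lay at 8 of the 10 genes, where 55.9% of all protein-coding genes had at least 1 peak. The LAP-Smad3 treated list had 35 peaks, also at 8 of the 10 genes, against 74.3% of all protein-coding genes. The larger number came with the longer list: cut to the length of the LAP-Smad2 list, the LAP-Smad3 list had 15 peaks at 7 of these genes, fewer than the 18 of LAP-Smad2. Of the 10 genes, 7 span at least 50 kb, and 6 of these 7 had a peak in each treated list. Among all protein-coding genes of that length the share was 70.0% for LAP-Smad2 and 88.9% for LAP-Smad3, and among shorter genes it was 48.6% and 66.8%. The number of genes with a peak was thus close to the background for genes of their length. The median density at the 10 genes was 1.18 LAP-Smad2 peaks per 100 kb of widened span, against 0.746 over all protein-coding genes, but the mean over the summed spans was 1.32 against 1.28. For LAP-Smad3 the median was 2.27 peaks per 100 kb against 2.42, and the mean 2.56 against 2.86.

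**Figure D2:**
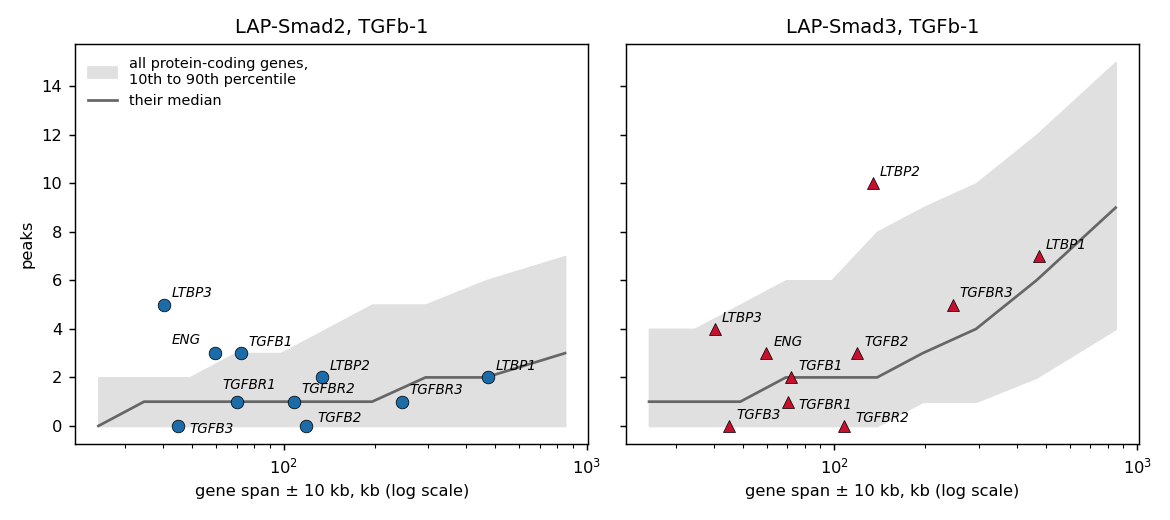
Peaks per gene (vertical axis) against the gene span widened by 10 kb on each side in kb (horizontal log axis) for the treated lists of LAP-Smad2 (left) and LAP-Smad3 (right), with the line at the median of all protein-coding genes and the band from their 10th to their 90th percentile. LTBP3 with 5 peaks and ENG with 3 stood above the band for LAP-Smad2, and LTBP2 with 10 did for LAP-Smad3.

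Summits of LAP-Smad2 lay within 1 kb of an annotated start at 6 of the 10 genes, where 29.5% of all protein-coding genes had such a summit. With only the start of the canonical transcript, the one Ensembl takes as representative, the count was again 6 of 10, against 23.8%. Summits of LAP-Smad3 came within 1 kb of an annotated start at 2 of the 10 genes, against 26.0%. None of the 10 genes had a LAP-Smad3 summit within 1 kb of its canonical start, against 14.4% of all protein-coding genes. The nearest to a canonical start was the LAP-Smad3 peak 2188 bp upstream of LTBP3. Over the peaks themselves, 10 of 18 LAP-Smad2 summits (55.6%, interval 33.7 to 75.4) and 4 of 35 LAP-Smad3 summits (11.4%, interval 4.54 to 26.0) lay within 1 kb of an annotated start. Among the peaks of each list at any protein-coding gene those shares were 38.9% and 17.5%. Of the 10 LAP-Smad2 summits near a start, 5 were at LTBP3, which has 20 annotated starts. The LAP-Smad2 share and median distance therefore depend partly on that gene. The members' median distance to the nearest annotated start was 826 bp for LAP-Smad2 (95% interval of the median 274 to 11019) and 8062 bp for LAP-Smad3 (4017 to 25884). Over all peaks at protein-coding genes it was 3274 and 6654 bp. Measured to the canonical start alone, the members' medians were 9094 and 45723 bp, so the LAP-Smad2 value of 826 bp rests on the choice of starts. Introns of the canonical transcript held 5 of the 18 LAP-Smad2 summits (27.8%, interval 12.5 to 50.9) and 26 of the 35 LAP-Smad3 summits (74.3%, interval 57.9 to 85.8). Over all pairs of a peak and a protein-coding gene the shares were 43.4% and 51.7%. At genes of at least 50 kb, which have more intron, the members had 4 of 10 and 23 of 28 (82.1%, interval 64.4 to 92.1), against 60.2% and 69.7%. A start of one of the 10 genes was the nearest protein-coding start for 12 of 18 LAP-Smad2 summits and 32 of 35 LAP-Smad3 summits, and the rest lay nearer to a neighbouring gene.

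**Figure D3:**
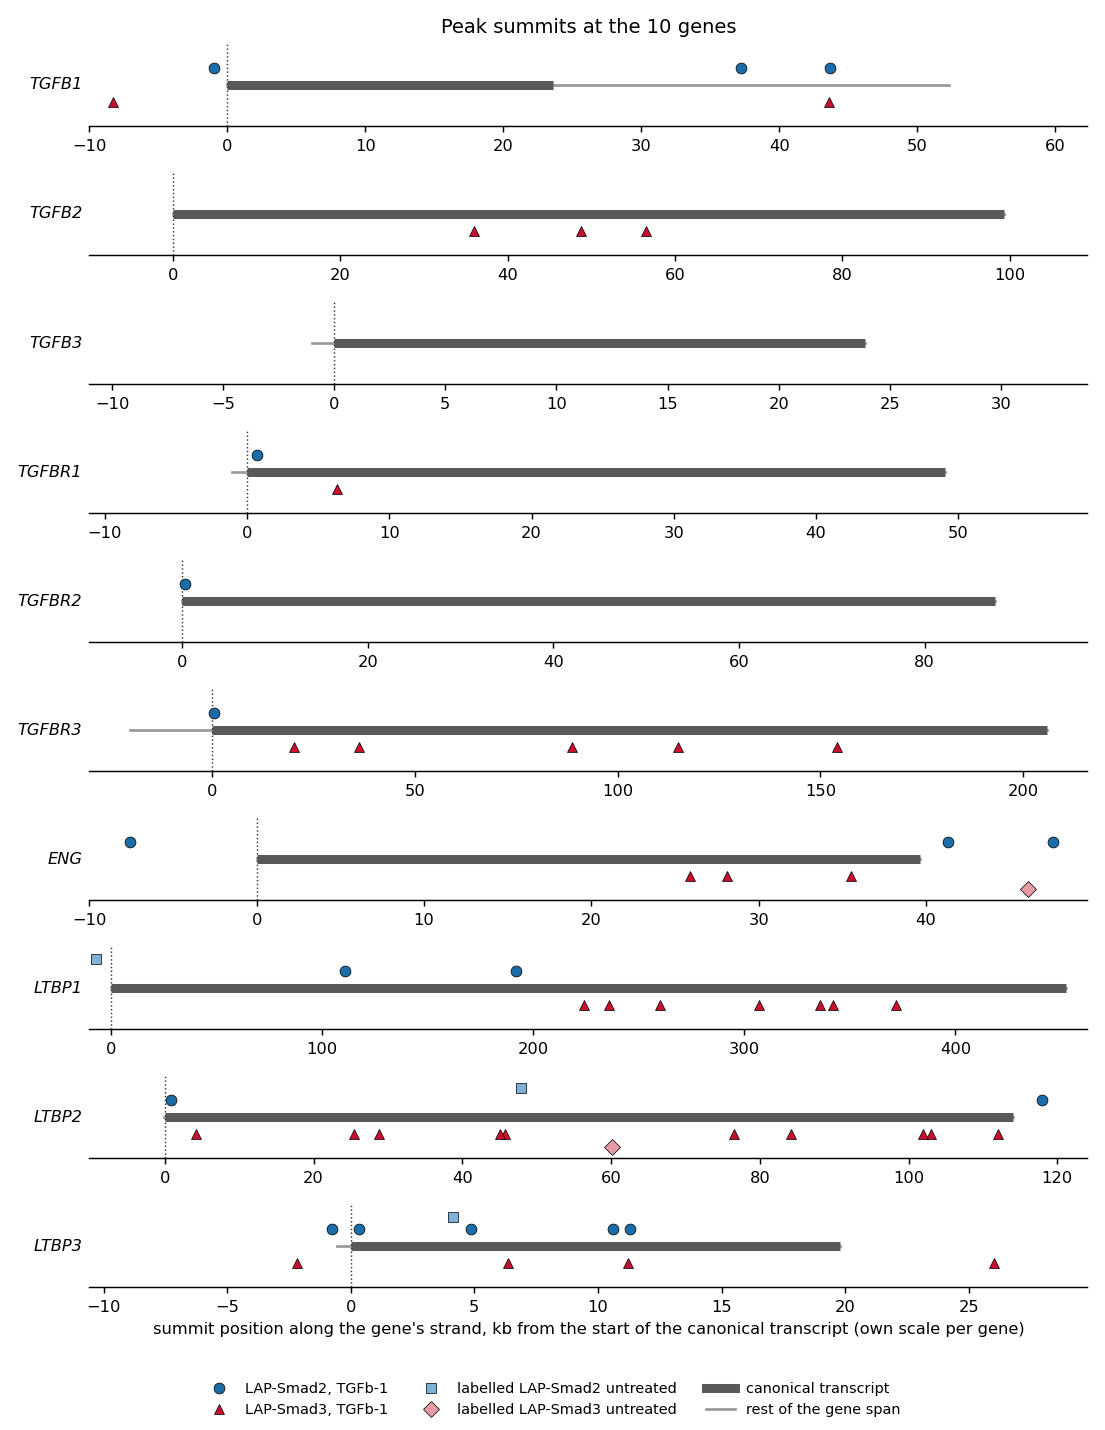
Position of each peak summit along its gene, in kb from the start of the canonical transcript and read along the gene's strand (each gene on its own scale), with thick bars for the canonical transcript and thin lines for the rest of the gene span. LAP-Smad2 summits (circles) sat at the dotted start line in TGFB1, TGFBR1, TGFBR2, TGFBR3, LTBP2 and LTBP3, while LAP-Smad3 summits (triangles) were mostly spread through the gene bodies.

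Of the ligands, TGFB1 (ENSG00000105329.11, chr19:41301587-41353922) had 3 LAP-Smad2 peaks and 2 LAP-Smad3 peaks. TGFB1 encodes the isoform with which the cells were treated. The LAP-Smad2 peak nearest to its start, at chr19:41354706-41354999, had its summit 958 bp upstream and a fold enrichment of 3.55, the 25.8th percentile of the list. That summit was also 711 bp from the start of TMEM91, which was the nearest protein-coding start. The strongest LAP-Smad2 peak at the gene, at chr19:41316557-41316848 with a fold of 4.11 (58.8th percentile), lay in CCDC97, 3013 bp from that gene's start.

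A peak shared by both Smads lay in the TGFB1 span, at chr19:41310182-41310411 for LAP-Smad2 and chr19:41310238-41310447 for LAP-Smad3. Its summits were 74 bp apart, with folds of 4.05 (56.5th percentile) and 5.21 (61.0th percentile), the latter the higher of the 2 LAP-Smad3 peaks at TGFB1. This peak was at the start of CCDC97, with summits 90 and 164 bp from it. It was downstream of the canonical TGFB1 transcript, 43.7 and 43.6 kb from that transcript's start, and fell in the span only because longer TGFB1 transcripts are annotated there. None of the 5 treated peaks of either Smad lay inside the canonical TGFB1 transcript, and none had a TGFB1 start as its nearest protein-coding start.

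TGFB2 (ENSG00000092969.12, chr1:218345336-218444619), a ligand that depends strongly on the co-receptor TGFBR3, had 3 LAP-Smad3 peaks and no LAP-Smad2 peak. The nearest LAP-Smad2 peak was 21.4 kb outside its span. All 3 LAP-Smad3 peaks lay in intron 1, at 36.0, 48.8 and 56.5 kb from the canonical start. Their folds were 3.10, 3.32 and 5.98. The strongest, at chr1:218401760-218401982, stood at the 79.8th percentile of the list and the others at the 2.34th and 5.15th. TGFB3 (ENSG00000119699.8, chr14:75958097-75983011), the remaining ligand, had no peak in any list. Its nearest peaks in both treated lists were 32.1 kb from its span and lay nearest to the start of TTLL5.

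The receptors carried few peaks. TGFBR1 (ENSG00000106799.14, chr9:99104038-99154192), the type I receptor kinase that phosphorylates Smad2 and Smad3, had 1 peak in each treated list. The LAP-Smad2 peak, at chr9:99105647-99105938 in intron 1, had its summit 732 bp past the canonical start. The LAP-Smad3 peak was in the same intron, 5632 bp further on, at chr9:99111358-99111557. Both were weak within their lists, with folds of 3.12 (9.20th percentile) and 3.50 (7.97th percentile).

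TGFBR2 (ENSG00000163513.19, chr3:30606601-30694142), the type II receptor that binds the ligand first, had 1 LAP-Smad2 peak and no LAP-Smad3 peak. The LAP-Smad2 peak, at chr3:30606736-30607058 in the non-coding part of exon 1, had its summit 262 bp past the canonical start and a fold of 3.95 (49.0th percentile). The nearest LAP-Smad3 peak was 102 kb outside the span. An even spread of the LAP-Smad3 list over the genome would place 2.18 peaks in a span of this length. Among the 2176 genes with widened spans of 80 to 120 kb the median was 2 and the 10th percentile 0.

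Among the co-receptors, TGFBR3 (ENSG00000069702.11, chr1:91680343-91906335), also called betaglycan, presents ligand to the signalling receptors. It had 1 LAP-Smad2 peak, at chr1:91885399-91885800 in intron 1, with the summit 493 bp past the canonical start and a fold of 3.98 (50.3th percentile). It also had 5 LAP-Smad3 peaks, which lay 20.3 to 154 kb from that start. The LAP-Smad3 folds ran from 4.08 to 5.85, and 3 of the 5 were above the list median, at percentiles of 60.8 to 77.2. Another, with a fold of 4.97, was equal to that median. The strongest, at chr1:91797294-91797517, had its summit in coding exon 3.

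ENG (ENSG00000106991.14, chr9:127815013-127854658), or endoglin, a co-receptor best known from endothelial cells, had 3 peaks in each treated list and none of them overlapped. The LAP-Smad2 peaks all lay outside the gene, 1 at 7599 bp upstream and the others downstream at the neighbouring gene FPGS. The upstream peak, at chr9:127862189-127862401, was the strongest with a fold of 3.90 (46.5th percentile). All 3 LAP-Smad3 peaks lay inside the gene, in introns 3 and 10 and coding exon 4, with folds of 3.17 to 5.22. The strongest of these, at chr9:127818957-127819192 in intron 10, stood at the 61.1th percentile. Of the 32-base words in the 200 bp around its summit, 99.4% occur more than once in hg38. ENG was thus the one co-receptor with no LAP-Smad2 summit within 1 kb of a start.

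The latent binding proteins held 9 of the 18 LAP-Smad2 peaks and 21 of the 35 LAP-Smad3 peaks. LTBP1 (ENSG00000049323.16, chr2:32946953-33399509), which anchors latent TGFβ in the matrix, is the longest of the 10 genes at 453 kb. It had 2 LAP-Smad2 peaks in introns 3 and 5, and the stronger, at chr2:33057776-33057978, had a fold of 4.31 (69.7th percentile), the highest LAP-Smad2 fold at any of the 10 genes. Its 7 LAP-Smad3 peaks lay in introns 5, 7, 11, 19 and 24, at 224 to 372 kb from the canonical start, with none in the part of the gene before intron 5. An even spread of the list would place 9.57 peaks in this span. The median of the 442 genes with widened spans of 360 to 600 kb was 6, with a 10th to 90th percentile of 2 to 12. The strongest LAP-Smad3 peaks, in introns 5 and 7, had folds of 7.71 and 6.94, the 96.0th and 92.7th percentiles.

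All 7 LAP-Smad3 windows at LTBP1 lay in repeated sequence, meaning that over 50% of the 32-base words in the 200 bp around the summit occur more than once in hg38. For the peak with a fold of 7.71 the median word occurs 2107 times. Reads from such words cannot always be placed at 1 locus, and the part this played in the LTBP1 peaks was not tested. Of the 2 LAP-Smad2 windows at LTBP1, 1 lay in repeated sequence. Repeated sequence also held LAP-Smad3 windows at TGFB1 (1 of 2), TGFB2 (2 of 3), TGFBR1 (1 of 1), TGFBR3 (3 of 5) and ENG (1 of 3). What it contributed to those peaks was not tested either.

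LTBP2 (ENSG00000119681.12, chr14:74498183-74612378) is a matrix protein of the same family that, unlike its relatives, does not hold latent TGFβ. It had 10 LAP-Smad3 peaks, and 4.15% of all protein-coding genes had at least that many. By density, at 7.45 LAP-Smad3 peaks per 100 kb, 16.9% of protein-coding genes were at least as dense. An even spread would place 2.72 peaks in its widened span, and the 90th percentile of the 1241 genes of 120 to 160 kb was 8. Their folds ran from 3.89 to 7.72. The strongest, at chr14:74509095-74509371 in coding exon 22, stood at the 96.8th percentile, and its printed window holds 5 CAGAC matches. A weaker peak 937 bp away, at chr14:74510139-74510360 in intron 19 with a fold of 3.89 (17.5th percentile), holds 2. Both summits were within 1 kb of an annotated start, at 519 and 418 bp, but 103 and 102 kb from the canonical start, so these are starts of short transcripts late in the gene.

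Repeated sequence was less frequent at LTBP2, where 9 of the 10 LAP-Smad3 windows were not repeated. Another pair of its peaks, in intron 3, had summits 617 bp apart and folds of 6.37 and 5.58. CAGAC was found in 8 of the 10 LTBP2 windows, 15 matches in all, and in 4 of the 25 LAP-Smad3 windows at the other genes. In the 8 windows of those genes outside repeated sequence it was found in 3. LTBP2 also had 2 LAP-Smad2 peaks. One, at chr14:74611397-74611661 in coding exon 1, had its summit 767 bp past the canonical start and a fold of 3.21 (11.5th percentile). The stronger, at chr14:74493946-74494214 with a fold of 3.97 (49.8th percentile), was downstream of the gene and 60 bp from the start of NPC2.

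LTBP3 (ENSG00000168056.18, chr11:65538559-65558930), another matrix anchor of latent TGFβ, had 5 LAP-Smad2 peaks in a widened span of 40.4 kb. At 12.4 peaks per 100 kb it was the densest of the 10 genes for LAP-Smad2, and 1.09% of protein-coding genes were at least as dense. By count, 3.52% of protein-coding genes had at least as many LAP-Smad2 peaks. LTBP3 was also the densest of the 10 for LAP-Smad3, at 9.91 peaks per 100 kb, where 10.4% of protein-coding genes were at least as dense. All 5 LAP-Smad2 summits were within 1 kb of an annotated start, but LTBP3 has 20 annotated starts, the most of the 10 genes, so that a summit anywhere in it tends to be near one. Relative to the canonical start, the peaks at chr11:65558971-65559227 and chr11:65557985-65558191 lay 756 bp upstream and 337 bp downstream. The others, at chr11:65553390-65553589, chr11:65547731-65548052 and in intron 14, were 4.88, 10.6 and 11.3 kb into the gene. Every one of these LAP-Smad2 peaks was below the median of the list in fold. They ranged from 2.71 to 3.72, with the upstream peak at the 35.3th percentile and the others at 2.35 to 7.78.

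The 4 LAP-Smad3 peaks at LTBP3 had folds of 2.92 to 5.19. Their strongest, at chr11:65551913-65552158 in coding exon 8, stood at the 60.8th percentile and was 146 bp from an annotated start. Another, in intron 14, was shared with LAP-Smad2, with summits 86 bp apart. Its folds were 3.08 (7.78th percentile) for LAP-Smad2 and 4.60 (39.7th percentile) for LAP-Smad3. Both of its windows lay in repeated sequence, with 50.3% and 92.3% of their 32-base words found more than once, and what this contributed to the overlap was not tested.

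Both treated lists had a peak at 7 of the 10 genes, against 47.0% of all protein-coding genes. A shared peak, an overlap of at least 1 bp, was found at 2 of the 10, TGFB1 and LTBP3, close to the 16.8% of all protein-coding genes. These 2 shared peaks were 11.1% of the 18 LAP-Smad2 peaks (interval 3.10 to 32.8) and 5.71% of the 35 LAP-Smad3 peaks (interval 1.58 to 18.6). Over the whole lists the shares were 24.5% and 10.6%, inside both intervals. More LAP-Smad3 than LAP-Smad2 peaks were found at 4 genes (TGFB2, TGFBR3, LTBP1 and LTBP2) and more LAP-Smad2 peaks at 3 (TGFB1, TGFBR2 and LTBP3).

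**Figure D4:**
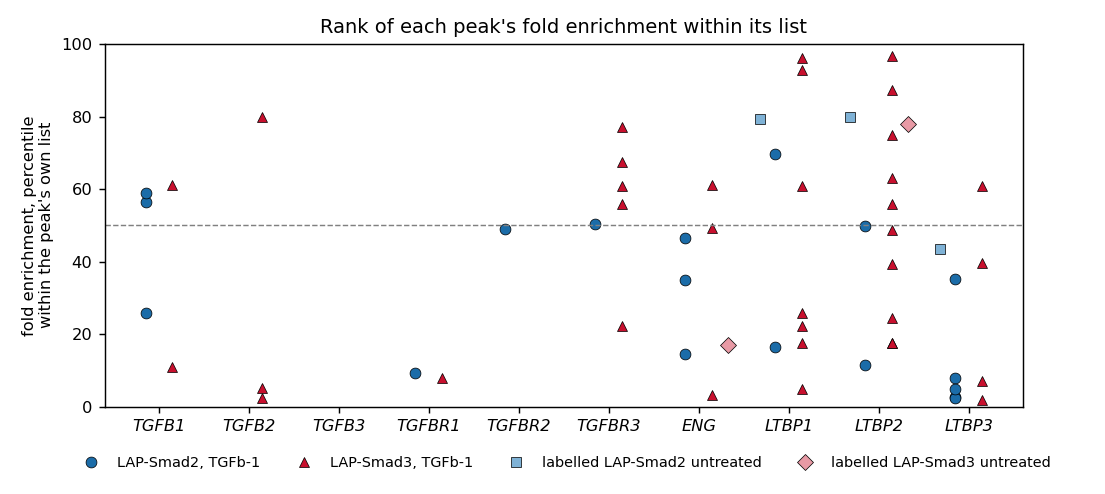
Fold enrichment of each peak as a percentile of its own list (vertical axis) by gene, with circles for LAP-Smad2 treated, triangles for LAP-Smad3 treated, squares and diamonds for the untreated libraries labelled LAP-Smad2 and LAP-Smad3, and a dashed line at the 50th percentile and peaks of equal fold given the highest percentile of their tie. The fold was above the list median at 4 of the 18 circles and 14 of the 35 triangles, triangles at the 56.0th percentile were equal to it, and the highest were LAP-Smad3 peaks of LTBP2 and LTBP1.

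In strength the peaks at these genes were ordinary or low within their lists. Of the LAP-Smad2 peaks 4 of 18 were above the list median (22.2%, interval 9 to 45.2), and the median percentile was 30.4 (95% interval of the median 9.20 to 49.8). The 4 were 2 at TGFB1, 1 at TGFBR3 and 1 at LTBP1. For LAP-Smad3, 14 of 35 were above the median of the list (interval 25.6 to 56.4%), with a median percentile of 48.8 (22.2 to 60.8).

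Without ligand, 5 peaks lay at these genes. The library labelled LAP-Smad2 untreated had 3, at LTBP1, LTBP2 and LTBP3, where 22% of all protein-coding genes had a peak. The library labelled LAP-Smad3 untreated had 2, at ENG and LTBP2, where 9.14% did. None of the ligands, TGFBR1, TGFBR2 or TGFBR3 had a peak in either. Only the peak at LTBP3 lay within 1 kb of an annotated start, 1 of the 10 genes against 2.68% of all protein-coding genes, and none did in the library labelled LAP-Smad3, against 4.12%. None of the 5 overlapped a treated peak, and the nearest treated summits were 0.755 to 23.5 kb away. The share of all untreated peaks that overlap a treated peak is not given here. The absence of overlap is therefore not read as a trait of these genes.

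The untreated peaks at LTBP1 and LTBP2 in the library labelled LAP-Smad2 differed in base composition from every treated peak at these genes. The LTBP1 peak, 7062 bp upstream of the start, had a GC content of 2.00% and a fold of 7.95, and the LTBP2 peak, in intron 3, had 2.50% and a fold of 8.03. Both lay in repeated sequence, as did 81.7% of all windows in that list. The third, in coding exon 2 of LTBP3, had a GC content of 72.5% and a fold of 5.76. In the library labelled LAP-Smad3 the peak at ENG was 153 bp from the start of FPGS with a fold of 3.16, and the peak at LTBP2 was in intron 6 with a fold of 4.63.

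**Figure D5:**
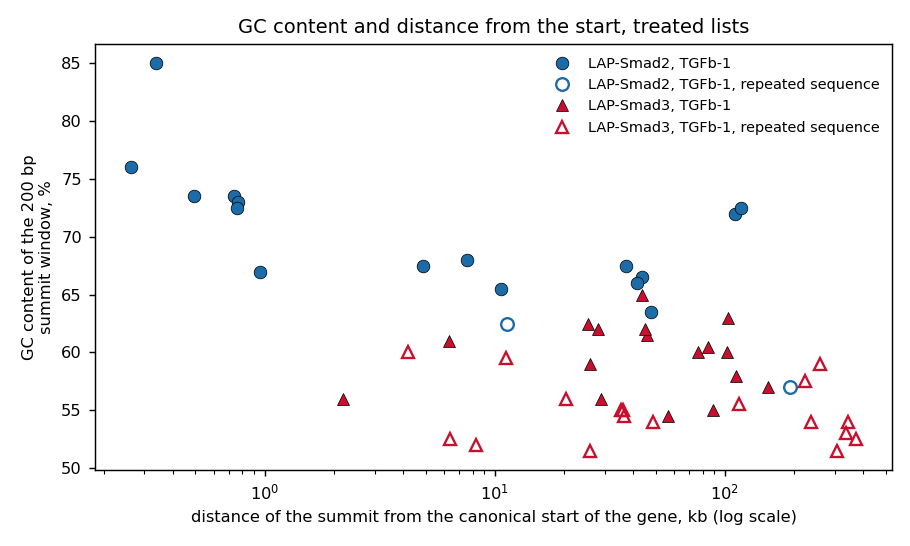
GC content of the 200 bp around each treated summit in percent (vertical axis, not starting at 0) against its distance from the canonical start in kb (horizontal log axis), with open symbols for repeated sequence. The 7 LAP-Smad2 windows within 1 kb of a canonical start had 67.0 to 85.0% GC, and the 35 LAP-Smad3 windows, all further away, had 51.5 to 65.0%.

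GC content at these genes differed between the treated lists. The median of the LAP-Smad2 windows at the 10 genes was 67.8%, against 65.0% over the whole list. For LAP-Smad3 it was 56.0%, against 58.5%. The 7 LAP-Smad2 windows within 1 kb of a canonical start had a median of 73.5%, and the other 11 had 66.5%. Repeated sequence held 2 of the 18 LAP-Smad2 windows (11.1%, interval 3.10 to 32.8), against 48.4% of the whole list. It held 18 of the 35 LAP-Smad3 windows (51.4%, interval 35.6 to 67.0), against 61.8%. GC content, repeats and list length all differed between the treated lists, and their part in the difference in position was not tested.

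Short motifs were counted in the 200 bp windows on both strands, and a match is a description of letters, not evidence of a site. GGCGC or GGCCG was found in 17 of 18 LAP-Smad2 windows (94.4%, interval 74.2 to 99), against 76.8% of the list. Among LAP-Smad2 list peaks within 3 kb of a protein-coding start, 87.9% had it. With windows on the interval centre, 16 of the 18 at these genes had it (88.9%). In the LAP-Smad3 windows it was found in 18 of 35 (51.4%), against 61.1%. CAGAC was as frequent at these genes as in the lists, in 6 of 18 LAP-Smad2 windows (33.3% against 35.3%) and 12 of 35 LAP-Smad3 windows (34.3% against 34.4%). Within the LAP-Smad3 windows, however, it was found in 11 of the 17 outside repeated sequence and in 1 of the 18 inside it. Of those 11 windows, 8 were at LTBP2 and 3 at the other genes. The shares inside and outside repeated sequence over the whole list are not given here.

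AGGTCA had the other distribution, in 8 of the 18 repeated LAP-Smad3 windows and 3 of the 17 others, and in 31.4% of all 35 against 26.9% of the list. It was found in 1 of the 18 LAP-Smad2 windows (5.56% against 14.4%). The E-box letters CANNTG were in 55.6% of LAP-Smad2 windows against 51.9% and in 65.7% of LAP-Smad3 windows against 55.9%. TGANTCA, the AP-1 site, was in 2 LAP-Smad3 windows, at TGFBR3 and LTBP3 (5.71% against 2.70%), and in no LAP-Smad2 window (0 of 18, interval up to 17.6%, against 1.37%).

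Beyond the 10 genes, 39 further genes were counted in the same way: other ligands and receptors of the superfamily, and genes that store, activate or oppose its ligands. At least 1 LAP-Smad2 treated peak lay at 21 of them (53.8%) and at least 1 LAP-Smad3 treated peak at 28 (71.8%), both close to the shares over all protein-coding genes. In the untreated libraries 6 (15.4%, against 22% of all protein-coding genes) had a peak in that labelled LAP-Smad2 and 2 (5.13%, against 9.14%) in that labelled LAP-Smad3. The genes of the latent complex, its storage and its activation all had a LAP-Smad3 peak, 9 of 9, against 74.3% of all protein-coding genes. A LAP-Smad2 peak lay at 4 of these 9, against 55.9%. Other receptors had LAP-Smad2 peaks at 8 of 13 and LAP-Smad3 peaks at 9 of 13, and other ligands at 7 and 9 of 11. The antagonists outside the cell had them at 2 and 1 of 6. The same background shares apply to every group, the groups are small, and no difference between groups or Smads was tested.

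Peaks in both treated lists were found at 18 of the 39 genes (46.2%), close to the 47.0% of all protein-coding genes. They were LTBP4, LRRC32, NRROS and FURIN among the storage and activation genes, and the receptor group genes ACVR1C, ACVR2A, ACVR2B, BMPR1A, BMPR1B, BMPR2, AMHR2 and TDGF1. The ligands were INHBA, INHA, NODAL, BMP2, BMP6 and BMP7. BMPR2, the type II receptor of bone morphogenetic proteins, had the most peaks with 18, of which 6 were from LAP-Smad2 treated and 9 from LAP-Smad3 treated cells. After it came the ligand BMP7 with 14, the receptor BMPR1B and the ligand BMP6 with 10 each, and FURIN, the protease that cleaves the TGFβ precursor, with 8. No gene had a peak in every list (0 of 39), and the share of all protein-coding genes that do is not given here. A shared peak was found at 4 of the 39 (10.3%, against 16.8%), ACVR1C, BMPR1B, BMPR2 and NODAL. A LAP-Smad2 summit lay within 1 kb of a start at 17 (43.6%, against 29.5%) and a LAP-Smad3 summit at 9 (23.1%, against 26.0%).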

How the data were processed

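Anti-GFP ChIP-seq peaks of 4 libraries were used, 1 per condition, grouped by the labels. Per the labels and the study's methods, the authors used Bowtie2 for alignment to hg38 and MACS2 for peak calling, with 200 bp read extension and a q-value limit of 0.05. The submitters' processing notes also name bedtools, and versions are not given in the sources used here. The deposited lists hold a fold ratio and −log10 p and q values for each peak. The deposited score column was not used. Coordinates and sequence were read from hg38, and gene spans and starts from GENCODE v44, with Python 3.11.15, pysam 0.24.0 and numpy 2.4.6. The script passed 9 of 9 checks on simulated data. The depth of each library is unknown. All peaks were kept, and no test was run.

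The 10 genes, the pathway lists and the motifs were chosen with earlier results of these data known. Shared peaks, peaks within 1 kb of a start and the strongest peak per gene and treated list are named. Of the pathway genes, those with peaks in both treated lists are named, with the 5 with the most peaks. Alternatives changed the widening, the start, the overlap, the q-value and the list length. Removal of repeated sequence was added after seeing the data. Sequences of peaks in repeated sequence are not reported here.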

Additional observations from a re-analysis of the deposited data

How the results depend on the processing

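Of 116 values recomputed under alternatives, 98 stayed within 1.5 times the reported count or list share, or inside the 95% interval of the reported share or median, and 18 moved. Those intervals are wide: the LAP-Smad2 median distance of 9094 bp to canonical starts and median fold percentile of 14.0 without widening lie inside them. With spans widened by 50 kb, treated peaks at the 10 genes numbered 31 for LAP-Smad2 and 67 for LAP-Smad3, untreated peaks under the LAP-Smad2 label numbered 6 at 5 genes, and the LAP-Smad2 median distance became 17302 bp. These rises follow from the wider spans. Cut to the length of the LAP-Smad2 list, which applies to LAP-Smad3 alone of the treated lists, LAP-Smad3 had 15 peaks, which turns the order against the 18 of LAP-Smad2. Without repeated sequence, an alternative chosen after seeing the data, LAP-Smad3 had 17 peaks at 6 of the 10 genes. Genes with a LAP-Smad3 summit near a start numbered 4 within 3 kb and 0 with the canonical start alone, where the median distance was 45723 bp. In the library labelled LAP-Smad2 untreated that canonical count was 0. In the library labelled LAP-Smad3 untreated, spans not widened left 1 peak at 1 gene and 1 pathway gene, and requiring that the nearest protein-coding start belong to the gene also left 1 peak at 1 gene. Windows on the interval centre left TGANTCA in 0% of LAP-Smad3 windows, and among LAP-Smad2 peaks within 3 kb of a protein-coding start AGGTCA was in 9.34%. The cause was not tested. No paired analysis was possible because each condition had 1 library and no replicate number. The depth of each library is unknown, so a gene without a peak is not shown to be unbound.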
